A study of Homo sapiens with 3 samples.

Results

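The MYC family and the genes of polyamine metabolism were followed across 14 clusters of embryonal carcinoma (EC) cells pushed in the direction of yolk-sac tumor (YST). The 10 genes were MYC, MYCN, MYCL and MAX of the MYC family and ODC1, AMD1, SRM, SMS, SAT1 and AZIN1 of polyamine metabolism, of 32727 genes in the deposited averages. All 10 were found. They were chosen by their average expression over the clusters, namely for how ODC1 and the other polyamine genes varied against MYC and MYCN, so their levels and differences are given as descriptions, without a test.

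MYC, MYCN and MYCL are transcription factors that bind DNA as partners of MAX, preferentially at the E-box CACGTG, and raise genes of ribosome production and growth. Polyamines are small, positively charged molecules that bind RNA and DNA and are needed for cell growth. ODC1, ornithine decarboxylase, starts their synthesis by making putrescine and is a textbook target of MYC.

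Single-cell RNA sequencing had been carried out on day 8 on 3 established EC lines, NCCIT, GCT27 and 2102EP, EC being an undifferentiated form of germ cell tumor. The study describes NCCIT and GCT27 as pluripotent, and 2102EP as nullipotent with less capacity to differentiate. The labels name these 3 lines, whereas the study also speaks of NT2/D1 in its single-cell data, and the labels were followed. Each line carried the lentiviral MPHv2 part of a CRISPR activation system, selected with hygromycin, and received lentiviral SOX17-SAMv2 to switch on its own SOX17 gene. All lines were then given Activin-A at 100 ng/ml, CHIRON, which activates WNT signaling, at 3 µM, FGF2 at 25 ng/ml and heparin at 1 µg/ml, renewed every 48 h. There was 1 library per line, pooled from 3 cultures, and no untreated library, so neither a line nor the treatment could be compared here.

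The tables held 20844 cells, between 42 in cluster 13 and 2808 in cluster 0. Each value is the mean over a cluster's cells of unique molecular identifiers (UMIs, counted RNA molecules) per 10000 UMIs of the cell. Since each average pools the libraries, it has no replicate error, and it does not separate a few high cells from many low ones. Levels of different genes are compared on this scale without division by gene length, because the kit counts the 3′ end of each RNA once. UMI totals of single cells could be recovered from values shared by several genes, with medians from 14916 in cluster 13 to 96381 in cluster 11. All cells were recovered in clusters 12 and 13 alone. In the other clusters deeper cells were recovered more readily, so UMI numbers called estimated tend to be too high. In cluster 5, 319 totals were recovered for 1798 cells, with a median of 26907. At that total a cell would hold 6.49 UMIs of SRM, yet 58.8% of its cells had none. The recovered medians therefore do not order the clusters by depth. Cells of a single library code made up 99.4% of cluster 12 and 86.3% of cluster 11. That share was also large in cluster 9 (83.2%), cluster 13 (73.8%) and cluster 5 (72.7%). The share of UMIs from ribosomal protein genes stood at 29.9% for cluster 13, and at 23.8% and 23.5% for clusters 11 and 5, against 16.3 to 19.4% elsewhere. SOX17, the induced gene, was highest in cluster 0 at 21.0, cluster 7 at 12.4 and cluster 13 at 8.52 UMIs per 10000. The EC marker POU5F1 peaked in cluster 6 at 3.96.

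MYC was the more abundant of the paralogs in most clusters and was lowest where SOX17 was high and in clusters 9 and 12. Its average was 0.425 UMIs per 10000 in cluster 1, 0.371 in cluster 11, 0.364 in cluster 8 and 0.359 in cluster 3, with clusters 2 and 5 next at 0.318 and 0.306. Intermediate averages of 0.249, 0.187 and 0.162 were seen in clusters 10, 4 and 6. In clusters 7, 9, 13, 0 and 12 the averages were 0.0682, 0.0481, 0.0477, 0.0362 and 0.0288. Cluster 1 thus lay 11.7-fold above cluster 0 and 8.84-fold above cluster 9, as a ratio of averages. The lowest value rests on an estimated 16.2 MYC UMIs in cluster 12 and that of cluster 13 on 2.99, so that the order of clusters 13, 0 and 12 was not resolved at this depth.

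A difference was taken as the log2 of the average plus 0.1 over the mean of the other clusters plus 0.1, and called from 2-fold on. This constant understates the differences of low genes such as MYC and MYCN. MYC was called lower in cluster 0 (log2 difference −1.26), cluster 9 (−1.13), cluster 12 (−1.34) and cluster 13 (−1.14), and in no cluster higher. The same call lower was made for 1.79% of the 12139 genes with a mean of at least 0.05 in cluster 0, where MYC and ODC1 were the members called. It was made for 3.12% in cluster 9, where the members were MYC, SMS and SAT1, and for 3.13% in cluster 12, where they were MYC and SMS. In cluster 13 it was made for 23.9% of genes, and the 3 members called there, MYC, AMD1 and AZIN1, stand against that large share.

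MYCN, the paralog known from neuroblastoma and early embryonic cells, had its peak in the cluster with the most POU5F1. Its average was 0.201 UMIs per 10000 in cluster 6, 0.134 in cluster 7 and, lower, 0.0821 and 0.0800 in clusters 0 and 3. It was 0.0652 in cluster 10, 0.0556 in cluster 5, 0.0528 in cluster 9, 0.0504 in cluster 11 and 0.0456 in cluster 2. The remaining averages were 0.0374 in cluster 1, 0.0310 in cluster 4, 0.0302 in cluster 8 and 0.0211 in cluster 12. MYCN was listed at 0 in cluster 13. There, 3 UMIs would give 0.0479, just below the median of 0.0516 over all clusters, so that the 0 in those 42 cells sets a limit close to the usual level of MYCN. The peak in cluster 6 was 1.50-fold above cluster 7 and 4.40-fold above cluster 2. Its log2 difference from the other clusters was 0.98, just short of 2-fold, and MYCN was called in no cluster.

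The balance of both paralogs therefore turned over among the clusters. MYCN made up 69.4% of the summed average of MYC and MYCN in cluster 0, 66.2% in cluster 7, 55.4% in cluster 6 and 52.3% in cluster 9. These were the 4 clusters in which MYCN exceeded MYC. SOX17 was at 21.0, 12.4 and 4.54 UMIs per 10000 in clusters 0, 7 and 6, but at 0.137 in cluster 9. The share was 7.68% in cluster 8, 8.08% in cluster 1, 11.9% in cluster 11, 12.5% in cluster 2, 14.2% in cluster 4, 15.4% in cluster 5, 18.2% in cluster 3 and 20.7% in cluster 10. On estimated UMIs, the Clopper-Pearson 95% interval ran from 67.3 to 71.4% in cluster 0 and from 53.3 to 57.4% in cluster 6, for counting error only. In cluster 9 it ran from 45.7 to 59.0%, which includes equal levels. Estimated UMIs of clusters 0, 6 and 9 tend to be too high, so these intervals tend to be too narrow. In cluster 12 the share of 42.3% had an interval from 24.5 to 62.8%, and in cluster 13, with an estimated 2.99 MYC UMIs and none of MYCN, the upper bound was 70.8%.

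**Figure D1:**
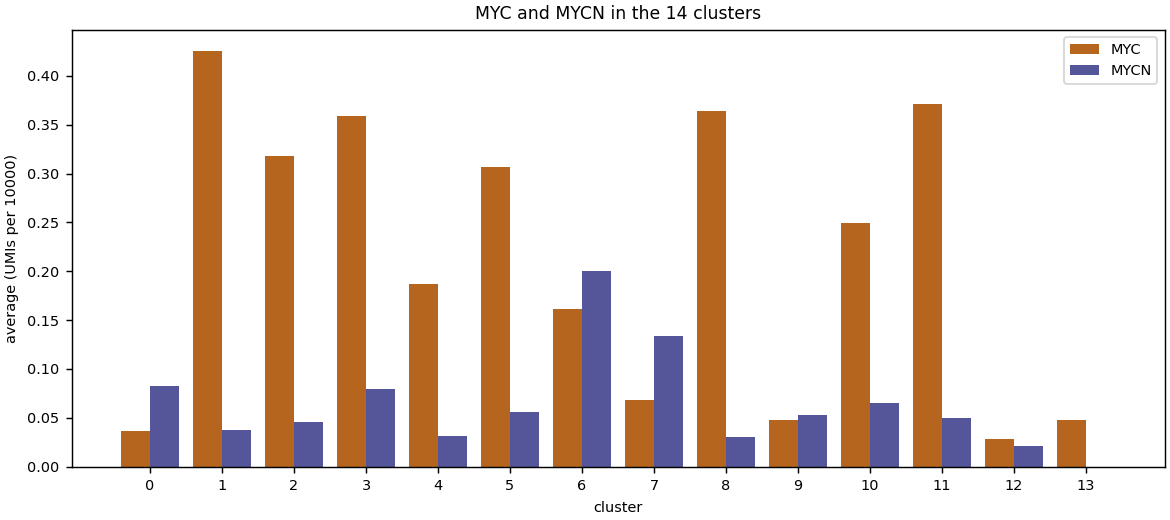
Average of MYC and MYCN (y axis, UMIs per 10000 UMIs of a cell) in each of the 14 clusters (x axis), as paired bars without error because each average pools the libraries. MYCN exceeds MYC in clusters 0, 6, 7 and 9, and MYC reaches 0.425 in cluster 1.

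MYCL, the third paralog, lay below both in every cluster but 13, with a highest average of 0.0275 in cluster 0, 0.0222 in cluster 6 and 0.0164 in cluster 7. Its lowest average above 0 was 0.00343 in cluster 4, and it was listed at 0 in cluster 13. MYCL was the member that failed the minimum mean of 0.05, so 9 members entered the counts of calls. MAX, the obligate partner, was the steadiest of the family, between 0.565 in cluster 12 and 0.246 in cluster 13 with a median of 0.516. Its second lowest average was 0.322 in cluster 5, and it was called in no cluster. MYC and its partner were thus not lowest in the same clusters, apart from cluster 13.

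ODC1 (GRCh38, chr2:10439968-10448327, minus strand) varied 7.35-fold as a ratio of averages, with a pair of clusters well above the rest. It averaged 17.6 UMIs per 10000 in cluster 2, followed by 11.96 in cluster 9. Clusters 8, 10, 3, 13 and 1 followed at 5.90, 5.71, 5.64, 5.55 and 5.48. Lower still were cluster 12 at 4.29, cluster 5 at 3.92, cluster 7 at 3.69, cluster 4 at 3.64, cluster 6 at 3.00, cluster 0 at 2.62 and cluster 11 at 2.40. Cluster 2 was 1.47-fold above cluster 9 and 2.99-fold above cluster 8, while the averages from cluster 8 down to cluster 1 lay close together. The log2 difference from the other clusters was 1.82 in cluster 2 and 1.15 in cluster 9. ODC1 was the member called higher in both, among 0.667% of genes called higher in cluster 2 and 3.07% in cluster 9. ODC1 was called lower in cluster 0 at −1.18 and in cluster 11 at −1.31, where 5.02% of genes were called lower.

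Detection adds to these levels in the authors' table, which lists the share of cells with at least 1 UMI. For ODC1 this was 93.9% of cells in cluster 2 and 99.5% in cluster 9. At the average of cluster 2, a cell with the median recovered total would hold 60.3 ODC1 UMIs, yet 6.10% of its cells had none. In cluster 9 the corresponding cell would hold 28.8 UMIs, and 0.500% of cells had none. The cells of cluster 2 were thus less even in ODC1 than the average alone shows. This was not particular to ODC1. For SAT1 the corresponding cell of cluster 2 would hold 53.6 UMIs, yet 95.5% of its cells had at least 1. That share for SAT1 was 99.5% in cluster 8 and 99.8% in cluster 11. Whether shallow cells account for the cells of cluster 2 without a UMI of either gene was not tested.

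The promoters of the polyamine enzymes ODC1, SRM and SMS were read from RefSeq (GRCh38.p14), because the E-box bound by MYC and MAX can be seen in them directly. CACGTG, which reads the same on both strands, is in capitals and all other bases are in lower case. Each sequence runs 5′ to 3′ on the strand of its gene. For ODC1 the 250 bases before the start of its longer transcript (chr2:10448328-10448577, minus strand) and a stretch of intron 1 that holds the start of another transcript (chr2:10447993-10448120, minus strand) are given. SRM (chr1:11060019-11060268, minus strand) and SMS (chrX:21940459-21940708, plus strand) are given for the 250 bases before the start.
ODC1 start: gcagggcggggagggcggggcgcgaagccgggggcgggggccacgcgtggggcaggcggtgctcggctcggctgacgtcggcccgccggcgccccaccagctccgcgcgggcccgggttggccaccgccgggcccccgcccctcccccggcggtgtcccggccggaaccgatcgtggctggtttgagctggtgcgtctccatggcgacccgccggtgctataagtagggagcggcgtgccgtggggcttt
ODC1 intron: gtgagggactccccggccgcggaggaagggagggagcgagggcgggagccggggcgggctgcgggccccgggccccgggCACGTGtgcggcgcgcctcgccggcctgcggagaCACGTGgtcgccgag
SRM: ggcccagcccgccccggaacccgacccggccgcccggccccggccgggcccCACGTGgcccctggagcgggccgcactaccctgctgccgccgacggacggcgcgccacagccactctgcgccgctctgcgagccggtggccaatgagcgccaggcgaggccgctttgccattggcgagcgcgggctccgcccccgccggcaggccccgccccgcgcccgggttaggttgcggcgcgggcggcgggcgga
SMS: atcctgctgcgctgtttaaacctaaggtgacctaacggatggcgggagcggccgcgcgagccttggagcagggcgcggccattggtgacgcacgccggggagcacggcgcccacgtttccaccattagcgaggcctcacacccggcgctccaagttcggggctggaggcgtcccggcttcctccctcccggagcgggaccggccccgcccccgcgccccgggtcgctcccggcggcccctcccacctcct

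In windows of 300 bases, 250 before and 50 after each start, the ODC1 window of the second start held 2 copies of CACGTG, at chr2:10448036-10448041 and chr2:10448002-10448007. They lie at −29 and 5 relative to that start, and both are in the first intron of the canonical transcript. SRM held 1 copy, at chr1:11060212-11060217, at −199 relative to its start. The other windows of the members in the RefSeq table held none, which makes 2 of 12 windows over 8 genes. MYC and AZIN1 had no window there. The AMD1 windows starting at chr6:110874534 and chr6:110874535 are nearly the same. Among all 35116 windows, 7.26% held at least 1 copy and 0.664% at least 2. The GC content of the ODC1 windows was 79.0% and 80.7%, and that of SRM 82.0%. SRM did not share the peaks of ODC1 in clusters 2 and 9. The part of these E-boxes in the levels of the members was not tested.

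AMD1 makes decarboxylated S-adenosylmethionine, the donor of the aminopropyl groups that turn putrescine into spermidine and spermine. Its average ran from 0.533 UMIs per 10000 in cluster 13 and 0.831 in cluster 12 to 1.90 in cluster 7 and 2.18 in cluster 0, with a median of 1.50. It was low in cluster 9, at 0.860, where ODC1 was high. In cluster 2 it was 1.51, close to its median. At least 1 AMD1 UMI was found in 95.3% of cluster 0 cells. AMD1 was called in cluster 13 alone, at a log2 difference of −1.33.

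SRM, spermidine synthase (chr1:11054584-11060020, minus strand), varied less, 3.07-fold as a ratio of averages. It was highest in cluster 11 at 3.16, cluster 5 at 2.41 and cluster 6 at 2.36, and lowest in cluster 9 at 1.17 and cluster 12 at 1.03. Its average of 1.56 in cluster 2 was below its median of 1.84. All cells of cluster 11 and 99.0% of those of cluster 6 had an SRM UMI, but only 41.2% of those of cluster 5 did, although the averages of clusters 5 and 6 were alike. The lowest recovered total in cluster 5 was 672 UMIs, the lowest of all clusters, and a single UMI weighs heavily in such a cell. SRM was called in no cluster.

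SMS, spermine synthase (chrX:21940709-21994837, plus strand), ranged 8.62-fold as a ratio of averages, the widest of the polyamine members, and its peak was in the cluster with the most SOX17. Its average was 14.5 UMIs per 10000 in cluster 0, 7.45 in cluster 7, 5.68 in cluster 6, 4.84 in cluster 3, 4.80 in cluster 11 and 4.79 in cluster 5. It was 4.01 in cluster 10, 3.93 in cluster 8, 3.79 in cluster 4, 3.59 in cluster 1 and 3.11 in cluster 2. The lowest were 2.66 in cluster 13, 1.96 in cluster 12 and 1.68 in cluster 9. SMS was therefore lowest in a cluster in which ODC1 was second highest, and highest in one in which ODC1 was second lowest. Cluster 0 was 1.94-fold above cluster 7, and 99.6% of its cells had an SMS UMI against 95.1% of those of cluster 7. SMS was called higher in cluster 0 at a log2 difference of 1.82, among 2.29% of genes, and lower in cluster 9 at −1.52 and cluster 12 at −1.30.

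SAT1, which acetylates spermidine and spermine for breakdown or export, was abundant throughout. Its average was 19.98 UMIs per 10000 in cluster 11, 16.0 in cluster 8, 15.8 in cluster 5 and 15.6 in cluster 2, with a median of 12.1. It was lowest in cluster 10 at 4.54, cluster 9 at 4.90 and cluster 6 at 6.25. The clusters with the most ODC1 thus differed in SAT1, cluster 2 being on the high side and cluster 9 on the low side. SAT1 was called lower in cluster 10 at −1.44, where 0.61% of genes were called lower, and in cluster 9 at −1.33. AZIN1, which frees ODC1 from its inhibitor antizyme, was even, with averages from 0.524 in cluster 11 to 0.884 in cluster 6 and 0.198 in cluster 13, where it was called lower at −1.48.

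**Figure D2:**
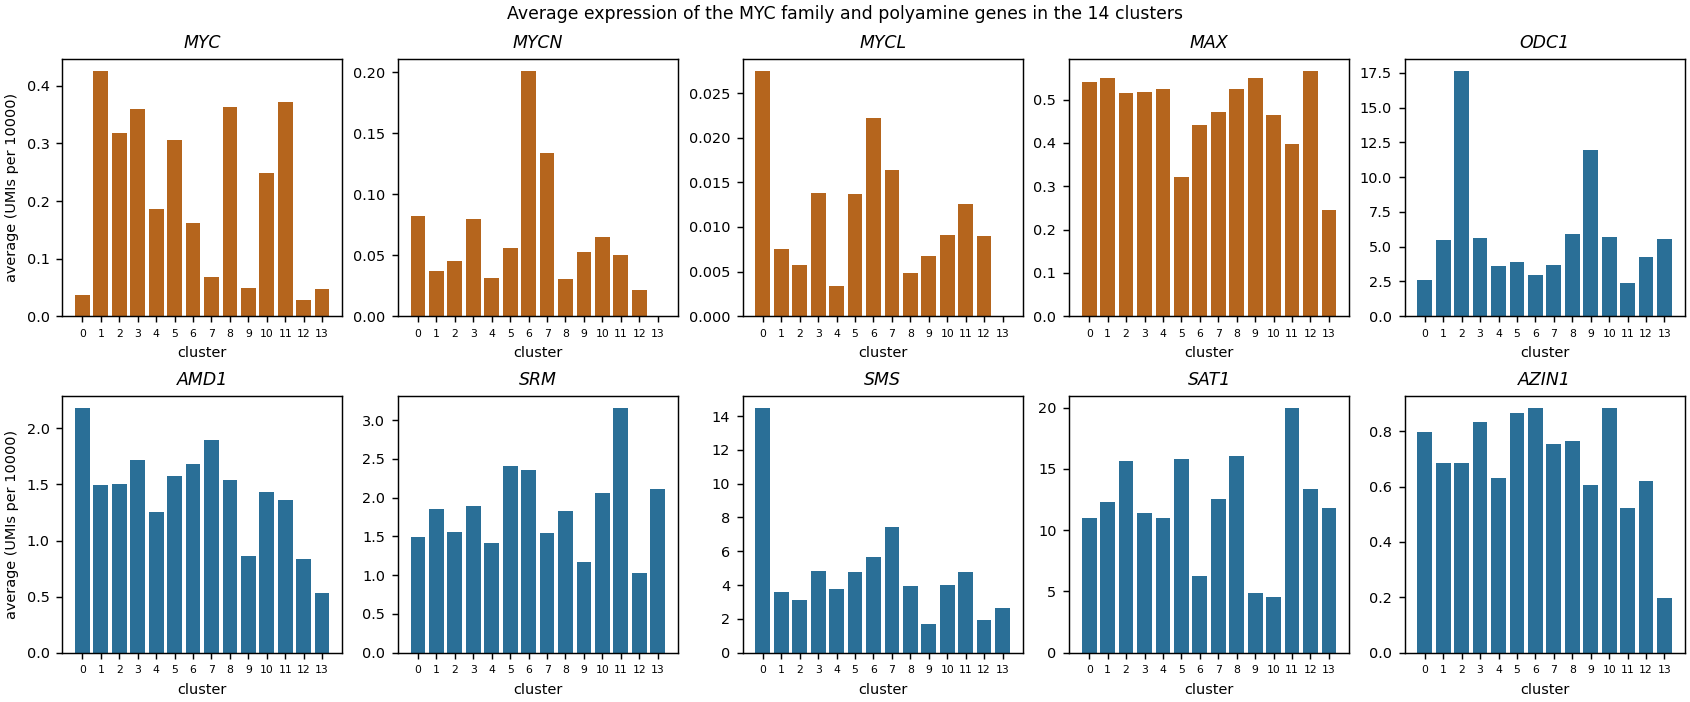
Average expression (y axes, UMIs per 10000 UMIs of a cell, each from 0 and scaled to its gene) of the 10 genes in the 14 clusters (x axes), with the MYC family in brown and polyamine genes in blue. ODC1 peaks in clusters 2 and 9 at 17.6 and 11.96, SMS in cluster 0 at 14.5 and MYCN in cluster 6 at 0.201.

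In all, 3 of 126 combinations of a member and a cluster were called higher, ODC1 in clusters 2 and 9 and SMS in cluster 0, and 12 were called lower. Of the combinations of all 12139 genes, 1.27% were called higher and 3.4% lower. Over the clusters, a range of at least 4-fold on the scale with 0.1 added was found for ODC1, SMS and SAT1, that is 3 of the 6 members whose mean reached 0.5, against 25.9% of the 3808 genes with such a mean. The ranges were 7.10 for ODC1, 8.19 for SMS, 4.33 for SAT1, 3.61 for AMD1, 3.31 for AZIN1 and 2.89 for SRM. Over the 12 clusters of at least 200 cells, those of AMD1 and AZIN1 were 2.38 and 1.58. In that order of all 3808 genes, SMS stood at percentile 95.0 and ODC1 at 93.6, while SRM stood near the middle at 50.8. Just short of 2-fold were ODC1 in cluster 6 (−0.99), MYCN in cluster 6 (0.98), SAT1 in cluster 6 (−0.97) and MYC in cluster 7 (−0.94), and just past it were MYC in cluster 9 (−1.13), MYC in cluster 13 (−1.14) and ODC1 in cluster 9 (1.15).

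**Figure D3:**
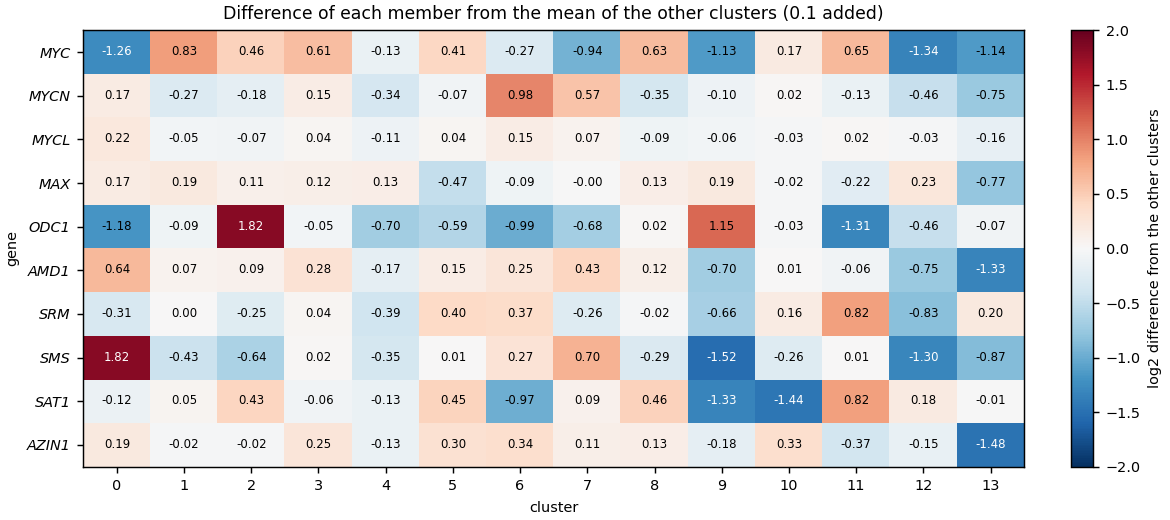
Log2 difference of each gene (rows) in each cluster (columns) from the mean of the other clusters, 0.1 added to both, with red for higher and blue for lower. ODC1 reaches 1.82 in cluster 2 and SMS 1.82 in cluster 0, while MYCL stays pale because 0.1 exceeds its averages.

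Set against MYC, the ODC1 averages did not fall in 1 order. Cluster 2 combined 17.6 UMIs of ODC1 with 0.318 of MYC, whereas cluster 9 combined 11.96 of ODC1 with 0.0481 of MYC, a MYC level 6.60-fold below that of cluster 2. At the other end, cluster 11 had 2.40 of ODC1 with 0.371 of MYC, and cluster 0 had 2.62 with 0.0362. High and low ODC1 were thus each found at high and at low MYC. Over the 14 clusters Pearson's r of the log2 averages was 0.11 and Spearman's rho 0.15, as a description of clusters that share libraries and a common total. With cluster 2 left out r was −0.06, after rescaling of the columns 0.04 and without cluster 9 0.31, and over the 9 clusters in which no library code held more than 70% of the cells it was 0.65. That relation therefore changed, in sign too, with the clusters taken in, and the part of the libraries in it was not tested.

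Against MYCN, ODC1 was low where MYCN was highest, with 3.00 in cluster 6 and 3.69 in cluster 7, and both clusters with a peak of ODC1 had MYCN near its median. Pearson's r was −0.31 and Spearman's rho −0.32, and r was −0.47 over the 9 clusters without a main library code. Among the members, MYCN ran most closely with MYCL (r 0.79, rho 0.87), AMD1 with AZIN1 (0.82, 0.74), AMD1 with SMS (0.79, 0.85) and MYCL with SMS (0.79, 0.82). MYCN also ran with AMD1 (0.68, 0.77), AZIN1 (0.64, 0.69) and SMS (0.58, 0.78). Its r with SRM was 0.19 and with SAT1 −0.35. ODC1 and SMS ran in opposite directions (−0.61, −0.61), as did MAX and SRM (−0.62, −0.81) and ODC1 and MYCL (−0.56, −0.54). MYC had its highest r with SRM (0.59, 0.50), and its r with MYCN was −0.00. The low values of both AMD1 and AZIN1 in cluster 13, and MYCN and MYCL listed at 0 there, enter these figures. In cluster 13, 1 library code held 73.8% of the 42 cells.

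**Figure D4:**
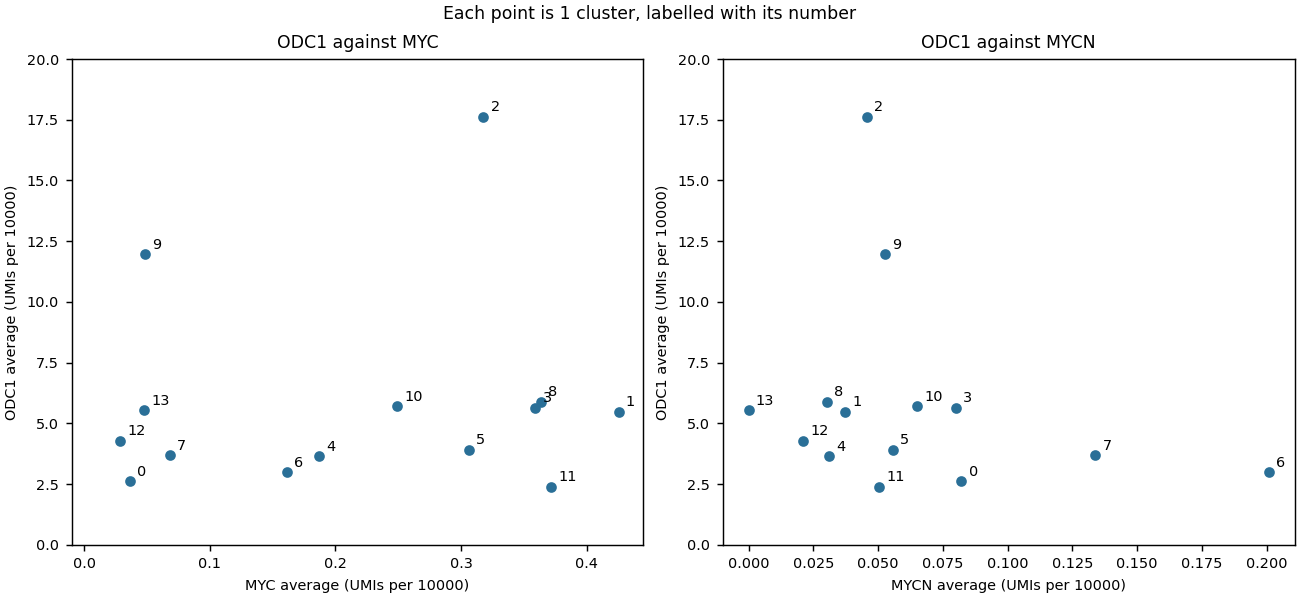
ODC1 average (y axes) against the MYC average (left) and the MYCN average (right), all in UMIs per 10000 UMIs of a cell, with 1 point per cluster labelled by its number. Clusters 2 and 9 stand above the others in both panels, at 0.318 and 0.0481 of MYC and at 0.0456 and 0.0528 of MYCN.

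Genes with patterns most like these were ranked by Pearson's r over the 14 clusters among those with a mean of at least 0.5. Nearest to ODC1 were CRABP2, a retinoic acid binding protein (r 0.85), the cadherin CDH11 (0.78), the collagen receptor MRC2 (0.77), the non-coding LINC01980 (0.75) and ZFPM2, a partner of GATA factors (0.71). CRABP2 was highest in cluster 2 at 4.33 and cluster 9 at 3.74, in the same order as ODC1, whereas CDH11 was 12.8 in cluster 9 and 4.95 in cluster 2. ZFPM2 was 5.82 in cluster 9 but 0.976 in cluster 2, below its 1.09 in cluster 12. For LINC01980 Spearman's rho was lower than r, at 0.46, and its averages ran only from 0.491 to 0.842. Nearest to MYC were FLRT2 (0.92), calmodulin CALM2 (0.92), the protocadherin PCDH10 (0.90), TAGLN (0.90) and the WNT antagonist DKK4 (0.89). Nearest to MYCN were the pluripotency-associated DPPA4 (0.89), the ADP/ATP carrier SLC25A5 (0.86), L1TD1 (0.85), the receptor ROR1 (0.84) and RCC2 (0.82), each highest in cluster 6. None of the polyamine members was among these 15 genes.

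Genes around MYC were called in few clusters, apart from cluster 13. Of 9 MYC antagonists and partners of MAX or MLX, 8 could be counted. Among them MLXIP, a glucose-responsive partner of MLX, was called higher in cluster 9, at 1.64 UMIs per 10000 and a log2 difference of 1.71, and none was called in cluster 0 or 2. The antagonist MXI1 was just short of 2-fold in cluster 0, where it had its highest average of 0.385 and a log2 difference of 0.98. MGA was called lower in clusters 11 and 13 and MXI1 in cluster 13. MGA, a MAX-binding repressor, had its highest average of 0.876 in cluster 9, and MLX ranged from 0.471 to 1.00. Of 10 cofactors and turnover factors, FBXW7, part of the ubiquitin ligase that marks MYC for breakdown, was called higher in cluster 0, at 1.74 with a log2 difference of 1.09. The kinase AURKA was called higher in cluster 3, at 1.77, and lower in cluster 9, at 0.0998 and −1.42. FBXW7 and HUWE1 were called lower in cluster 11. In cluster 13, 6 of the 10 were called lower, with a median of −1.10 against −0.51 over all genes. PVT1, the non-coding neighbor of MYC, was highest in cluster 6 at 2.08 and was 1.01 in cluster 0, and the ubiquitin ligase HUWE1 was highest in cluster 9 at 2.91.

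Among 36 genes of ribosome biogenesis and growth known as MYC targets, 35 could be counted. The median log2 difference was 0.11 in cluster 2, 0.11 in cluster 1, 0.29 in cluster 6, −0.20 in cluster 0 and −0.23 in cluster 9, beside 0.05, −0.01, −0.05, 0.07 and 0.09 over all 12139 genes. In clusters 8, 3 and 10 it was 0.26, 0.19 and 0.20, beside −0.01, 0.02 and −0.03 over all genes. In clusters 11, 4 and 7 it was −0.20, −0.20 and −0.03, beside −0.29, 0.08 and 0.04. It was lowest in cluster 12, at −0.50 against 0.05 over all genes, with BOP1 and NIP7 called lower and CCND2 higher. Cluster 12 was among those with the lowest MYC, on an estimated 16.2 UMIs, and 1 library code held 99.4% of its cells. In cluster 13 the target median was −0.45 against −0.51, with 11 genes called lower, and in cluster 5 it was 0.18 against −0.24. In cluster 2 no gene of this list was called, in cluster 0 LDHA and CCND2 were called lower, and in cluster 9 LDHA was, at 2.29 UMIs per 10000 and −1.77. Nucleolin, NCL, was highest in cluster 6 at 9.13 and lowest in cluster 13 at 1.72, and cyclin D2, CCND2, was highest in cluster 12 at 20.4. With columns rescaled by the median of ratios the median was 0.0062 in cluster 2 and −0.31 in cluster 9, so the sign in cluster 2 was not resolved.

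The other genes around polyamines stayed close to their means in the clusters where ODC1 peaked. Of 16, among them antizymes, oxidases, transporters and enzymes of the methionine cycle, 13 could be counted. None was called in cluster 2, and in cluster 9 only AZIN2, a second antizyme inhibitor, was called higher, at 0.334 UMIs per 10000. The antizyme OAZ1, which targets ODC1 for breakdown, was 7.52 in cluster 2 and 7.60 in cluster 9, near its mean of 8.05. SAT2, a paralog of SAT1, and the transporter subunit SLC3A2 were highest in cluster 13 at 4.84 and 3.70. MTAP, which salvages the by-product of spermidine and spermine synthesis, was highest in cluster 2 at 1.40. EIF5A, the protein that carries hypusine made from spermidine, ranged from 1.74 in cluster 12 to 3.57 in cluster 5, and DHPS, which attaches it, from 0.447 to 0.946. None of the 4 hypusine genes was called in any cluster.

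The clusters with a peak of ODC1 differed in cell cycle and WNT genes. Their G2/M and WNT medians differed in size and not in direction. In cluster 9, 9 of 10 G2/M genes and 4 of 10 S phase genes were called lower, with medians of −1.38 and −0.70. In cluster 2 the S phase median was 0.27 and the G2/M median −0.66, with TOP2A and UBE2C called lower. The WNT target median was 1.48 in cluster 9, where NKD1 reached 22.1 UMIs per 10000 but DKK4 was called lower at 0.106 and −3.29. In cluster 2 that median was 0.34. DKK1 was called higher in both, at 4.63 in cluster 9 and 3.13 in cluster 2. In clusters 0 and 6, where ODC1 was low, the WNT medians were −1.38 and −1.97. Cluster 12 had a WNT median of 0.69 with ODC1 at 4.29, so a raised WNT median and high ODC1 did not always go together. The part of cell cycle stage in these levels was not tested.

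The peaks of ODC1 differed in their cell type markers. In cluster 2 the summed mesendoderm markers EOMES, CER1, LHX1 and GSC were at 6.97 UMIs per 10000, second to cluster 8 at 8.14. Cluster 8 had ODC1 at 5.90. In cluster 9 the 3 presomitic mesoderm markers summed to 5.52, their highest value, led by MSGN1 at 4.58, against 0.551 in cluster 2. The 6 EC markers summed to 0.920 in cluster 9, their lowest, and to 9.88 in cluster 6. The 4 fibroblast markers summed to between 0.115 in cluster 6 and 3.61 in cluster 12, where COL1A2 and COL1A1 were at 2.21 and 1.39, while DCN was at most 0.00211 anywhere. The 4 blood markers summed to between 0.00624 and 0.101, with LYZ at 0.0959 in cluster 0, HBB at most 0.0193 and PTPRC at most 0.00185. Summed, the 3 endothelial markers were highest in cluster 0, where SMS and AMD1 peaked, at 0.467 with CDH5 at 0.342. Of the 3, VWF was instead highest in cluster 2, at 0.166 against 0.0536 in cluster 0. The part of these cell types in the levels of the members was not tested. AMD1, SMS, SRM and MYCL have pseudogenes in the annotation, and reads that the counting could not place between copies leave their levels uncertain.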

How the data were processed

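Droplet-based 3′ libraries of NCCIT, GCT27 and 2102EP cells, 1 per cell line, were taken on day 8. The title of 1 sample gave another line than its further labels and was followed. Per the submitters' processing notes, Cell Ranger 7.0 and Seurat 4.1.1 were used with GRCh38. According to the methods of the study, libraries were aggregated to equal depth, gene-poor cells, cells rich in mitochondrial reads and doublets were left out, and cells were clustered after SCTransform. This fixes which cells are compared, and reads of deeper libraries are lost in it. Which annotation release was used was not given in the sources used here.

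The authors deposited the average expression per cluster, a mean in UMIs per 10000 with every column summing to 10000. Of 3484 values that at least 3 genes shared in a cluster, 3239 (93.0%) equalled 10000 over a whole number of UMIs and the number of cells, within a tolerance of 0.0001, so the averages are means over cells of normalized UMIs. That whole number was taken as a cell's total, and its median gave the estimated UMIs. In the deposited counts of cells, libraries stood under 3 codes that could be tied to no label, so they served for the largest code's share only. Of the authors' marker table, the detection fraction was used. Its log2 fold changes and p-values compare a cluster with the other cells and were not used.

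With 1 library per line and pooled averages, no test was made. Differences from the unweighted mean of the other clusters used a pseudocount of 0.1. The members and the gene lists were chosen with earlier results of these data known. Named were all members, the 3 genes of widest range in each list among those with a mean of at least 0.5 plus any called in cluster 2, the 5 genes most like ODC1, MYC and MYCN, and SOX17 and POU5F1. AZIN2, OAZ1, AURKA, MXI1, BOP1, NIP7 and the markers of other cell types are outside it and were picked with their values in view. PHB1 was matched by its older symbol. The method was tested on simulated averages. Alternatives were other pseudocounts, a weighted reference, column rescaling, totals without ribosomal protein and mitochondrial genes, and cell minimums. The pseudocount of 0.01 for ranges and those that set clusters of a main library or single clusters aside were chosen after seeing the data. Gene positions came from GENCODE 44. A floor is 3 UMIs, and intervals cover counting error only, which they tend to understate outside clusters 12 and 13. Protein sequences were not analysed here. The tools were Python 3.11.15, matplotlib 3.10.9, numpy 2.4.6, scipy 1.17.1 and pandas 2.3.3.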

Additional observations from a re-analysis of the deposited data

How the results depend on the processing

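Of 15 called differences under 7 alternatives each, 95 of 105 kept their direction and stayed past 2-fold, 10 stayed in direction but lost the call, and 0 reversed. With a pseudocount of 1, the log2 difference of MYC was −0.24 in cluster 0, −0.22 in cluster 9, −0.25 in cluster 12 and −0.23 in cluster 13, that of ODC1 in cluster 0 was −0.97, that of AMD1 in cluster 13 −0.70 and that of AZIN1 in cluster 13 −0.53. Adding 1 shrinks every difference. With columns rescaled by the median of ratios, which moved columns by −0.78 (cluster 13) to 0.13, MYC, AMD1 and AZIN1 in cluster 13 were at −0.81, −0.59 and −0.87, so no call in cluster 13 held under it. The number of combinations called higher was 6 with a pseudocount of 0.01 and 5 after rescaling, against 3, and that called lower was 5 with a pseudocount of 1, against 12. With a pseudocount of 0.01 the range of MYC was 11.2-fold and that of MYCN 21.1-fold, the latter set by the 0 in cluster 13. The correlation of ODC1 with MYC was 0.31 without cluster 9 and 0.65 over clusters without a main library, and the cause was not tested. In 11 uncalled combinations, an alternative passed 2-fold, such as MYCN in cluster 6 at 1.10 without ribosomal protein and mitochondrial genes in the total. ODC1 in clusters 2, 9 and 11, SMS in clusters 0, 9 and 12 and SAT1 in clusters 9 and 10 kept their calls under all 7. Depth limits MYC, MYCN and MYCL in clusters 12 and 13. No paired analysis was possible because every sample carries the same replicate number and the averages carry no sample.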
